A study of Cavia porcellus with 12 samples.

Results

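The genes described here carry fatty acids into cells and bind them once inside. The list named 10 genes, and 9 of them were among the 11896 genes with a human symbol in the deposited data: the lipases *LPL* and *LIPC*, the scavenger receptor *CD36*, the transport proteins *SLC27A1* and *SLC27A4*, and the binding proteins *FABP1.1*, *FABP1.2*, *FABP4* and *FABP5*. *DBI*, which encodes the acyl-CoA binding protein, was the remaining one and was not analysed here. *FABP1.1* and *FABP1.2* are a pair of separate guinea pig loci with the same human orthologue, *FABP1*. The members were listed by name, with no threshold on a measured value, and with earlier results of these data known.

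Liver RNA was sequenced from 6 control and 6 NASH animals. All were female Dunkin Hartley guinea pigs bought at the same age and kept on their diet for 25 weeks, chow for the controls and a high-fat diet with added sucrose and cholesterol for the NASH group. The NASH animals were picked from the high-fat-fed animals because they had bridging fibrosis, and the controls were drawn at random from chow-fed animals without NASH or fibrosis, so diet and disease cannot be told apart. The tissue came from the left lateral lobe of livers that had not been perfused, and every library is the whole tissue of a single animal.

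Lipases free fatty acids from the triglycerides of circulating lipoproteins. Lipoprotein lipase acts mainly at the capillary wall of muscle, heart and adipose tissue and is little expressed by the adult liver, whereas hepatic lipase is made by hepatocytes. *CD36* takes up long-chain fatty acids and oxidised lipoproteins, and the SLC27 proteins couple uptake to activation with coenzyme A. Inside the cell the fatty acid binding proteins carry the water-insoluble fatty acids: FABP1 is the abundant form of hepatocytes, FABP4 that of adipocytes, macrophages and some endothelia, and FABP5 that of epithelia and macrophages.

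Control libraries held 16980274 to 28636467 counts and NASH libraries 23704607 to 33091460. Levels are given in CPM, counts relative to the library total, scaled with TMM factors from edgeR, which lay from 0.804 to 0.875 in controls and from 1.12 to 1.24 in NASH. Because these factors differed between the groups, small differences depended on the scaling. Over all genes the median log2 fold change was 0.48 with library size alone and 0.00 with TMM. The 9 hepatocyte markers tested of 10 listed had sums from 98031 to 120087 CPM in controls and from 39998 to 62794 CPM in NASH. In bulk tissue, fewer cells of a type and less RNA per cell cannot be told apart.

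By edgeR's quasi-likelihood test at 0.05 after Benjamini-Hochberg adjustment over all genes tested, 7 of the 9 members differed between the groups, 4 higher and 3 lower in NASH. Over all genes tested, 53.9% passed the same threshold (27.9% higher and 26% lower), so passing was common among the genes of these livers. In 6 of the 9 members the CPM of the NASH animals lay apart from that of the controls, against 33.7% of all genes (18.4% with NASH above and 15.3% with NASH below the controls). *FABP5* rose 31.2-fold, *LPL* 20.1-fold, *FABP4* 4.0-fold and *CD36* 1.5-fold. *FABP1.2* fell 4.94-fold, *FABP1.1* 2.76-fold and *LIPC* 1.5-fold. The other two, *SLC27A1* and *SLC27A4*, did not pass the threshold. The median log2 fold change of the 9 members was −0.08, beside 0.00 over all genes.

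**Figure D1:**
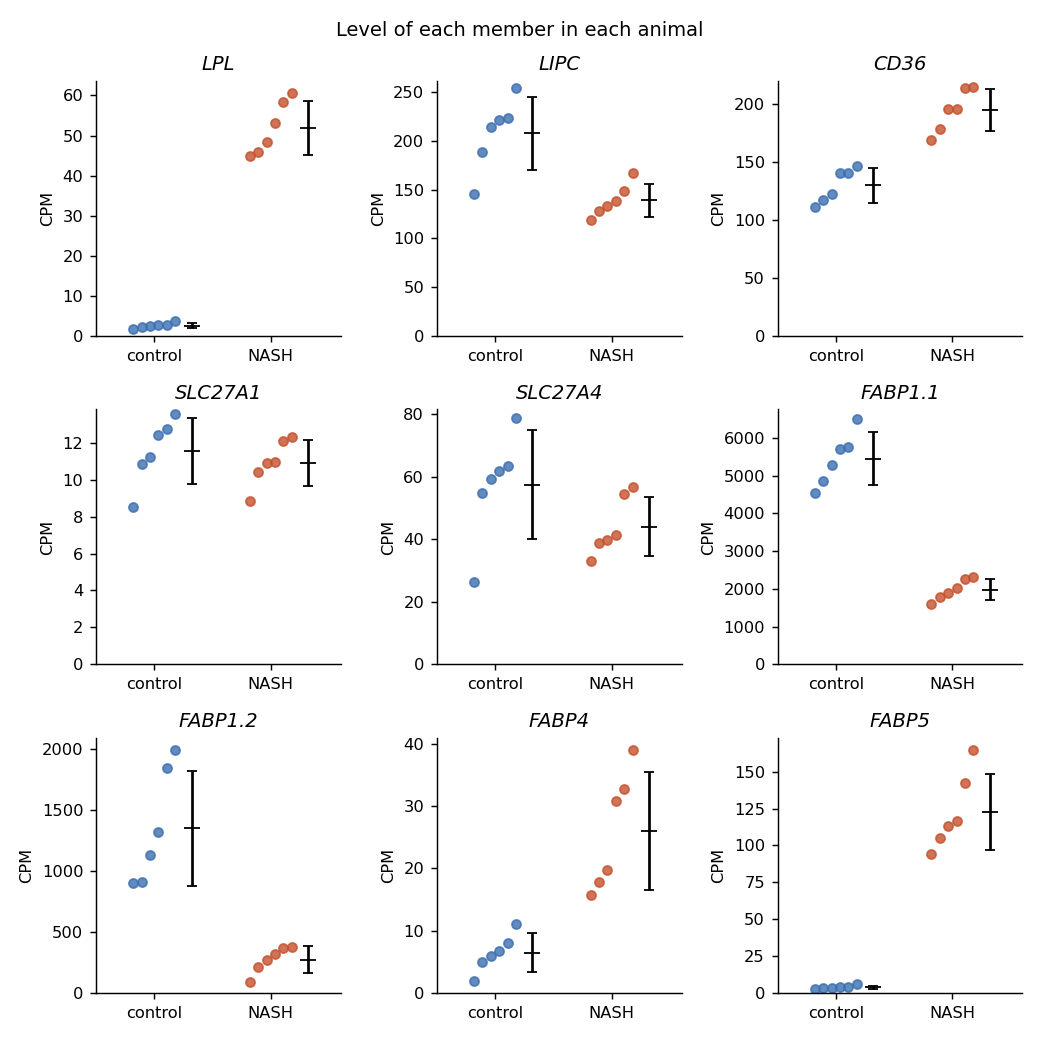
CPM of each of the 9 members (vertical axis, linear and from 0) in 6 control and 6 NASH animals. Each point is an animal, ordered by value within its group, and the bar beside them is the mean with its SD. In *LPL* and *FABP5* the control points lie close to 0, at most at 3.63 and 5.78 CPM, whereas both *FABP1* copies lie higher in all controls than in any NASH animal.

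*LPL* encodes lipoprotein lipase. Its level in controls was lowest at 1.69, with a median of 2.60 and a highest value of 3.63 CPM, from counts of 33 to 79. In NASH it was from 44.8 to 60.6 CPM, with a median of 50.7, from counts of 1280 to 1851. The lowest NASH animal thus lay far above the highest control, and the spread within NASH was narrow, with a coefficient of variation of 12.8%. The means were 2.58 ± 0.649 CPM and 51.9 ± 6.64 CPM (SD, n = 6 per group). The log2 fold change was 4.33 (SE 0.16, edgeR adjusted p = 6.57e-09), with a 95% interval of the fold from 15.7 to 25.7. Of the 11896 genes, 106 had a larger log2 fold change.

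*LIPC*, the gene of hepatic lipase, went the other way. Controls lay from 145 to 255 CPM with a median of 218, and NASH animals from 119 to 167 CPM with a median of 136. The groups overlapped through control 45, the lowest control at 145 CPM. The next lowest control was at 189 CPM, above all NASH animals. The mean fell from 208 ± 37.4 to 139 ± 16.8 CPM (SD, n = 6 per group), or −0.58 on the log2 scale (SE 0.13, edgeR adjusted p = 0.00166). This call depended on the scaling: with library size alone *LIPC* had a log2 fold change of −0.11 (edgeR adjusted p = 0.423), 0.59 less than the median gene with that scaling.

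The ratio of *LPL* to *LIPC* counts within an animal does not depend on the scaling. It was from 0.00756 to 0.0192 in controls and from 0.269 to 0.440 in NASH, with means of 0.0128 ± 0.00403 and 0.377 ± 0.0596 (SD, n = 6 per group). The groups lay far apart in this ratio. Gene lengths are not taken into account, so a ratio compares animals and not the levels of the paired genes.

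*CD36* was present at more than 100 CPM in every animal. Controls ranged from 111 to 147 CPM with a median of 131, and NASH animals from 169 to 215 CPM with a median of 196. Both groups were narrow, with coefficients of variation of 11.4% and 9.40%, and they did not overlap. The mean rose from 130 ± 14.8 to 195 ± 18.3 CPM (SD, n = 6 per group), or 0.58 on the log2 scale (SE 0.09, edgeR adjusted p = 0.000132). The 95% interval of the fold was 1.31 to 1.72, so a doubling lay outside it under TMM scaling. With library size alone the log2 fold change was 1.06, 0.58 more than the median gene. Over all genes, 2398 had a larger log2 fold change than *CD36*.

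*SLC27A1* encodes fatty acid transport protein FATP1, best known from muscle and adipose tissue. It lay from 8.50 to 13.5 CPM in controls, with a median of 11.8, and from 8.83 to 12.3 CPM in NASH, with a median of 10.9. The ranges of the groups nearly coincided. The log2 fold change was −0.08 (SE 0.12, edgeR adjusted p = 0.568), with a 95% interval from −0.33 to 0.17. It took the opposite sign with library size alone, 0.39 (edgeR adjusted p = 0.0142), 0.09 less than the median gene with that scaling.

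*SLC27A4* encodes FATP4, which also has acyl-CoA synthetase activity. Controls were spread from 26.3 to 78.9 CPM with a median of 60.7, and NASH animals from 33.1 to 56.8 CPM with a median of 40.5. Control 56 was the lowest of all 12 animals, and the other 5 controls lay at 54.9 CPM or more. The log2 fold change was −0.38 (SE 0.22, edgeR adjusted p = 0.156), with a 95% interval from −0.86 to 0.09. Without control 56 it was −0.53 and passed the threshold (edgeR adjusted p = 0.00953). On library size alone it was 0.10 (edgeR adjusted p = 0.698). The ratio of *SLC27A4* to *SLC27A1* counts overlapped between the groups, at 2.43 to 7.05 in controls and 3.03 to 6.44 in NASH.

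*FABP1* is the fatty acid binding protein of hepatocytes. Its pair of copies together took 0.579 ± 0.111% of all counts in controls and 0.265 ± 0.0370% in NASH (SD, n = 6 per group), and the lowest control (0.438%) lay above the highest NASH animal (0.327%). Reads that map to more than a single place were ignored by the authors, so any stretch that both copies share adds to neither.

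*FABP1.1* was at 4553 CPM in the lowest control, at 5489 CPM at the median and at 6506 CPM in the highest. In NASH the values were 1590 CPM at the lowest, 1955 at the median and 2303 at the highest. Every NASH animal was thus well below every control. The mean fell from 5446 ± 700 to 1976 ± 275 CPM (SD, n = 6 per group), or −1.46 on the log2 scale (SE 0.12, edgeR adjusted p = 7.61e-07).

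*FABP1.2* had the lower counts of the pair and the wider spread, with coefficients of variation of 34.8% in controls and 39.5% in NASH. Controls lay from 899 to 1997 CPM with a median of 1225, and NASH animals from 91.0 to 375 CPM with a median of 293. The lowest value was that of NASH 11, and the next lowest NASH animal was at 216 CPM. The mean fell from 1350 ± 470 to 273 ± 108 CPM (SD, n = 6 per group), or −2.31 on the log2 scale (SE 0.33, edgeR adjusted p = 8.31e-05). Of all genes, 56 had a lower log2 fold change.

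The 95% intervals of the log2 fold change were −1.72 to −1.21 for *FABP1.1* and −3.02 to −1.59 for *FABP1.2*, and they overlapped. These intervals do not test the copies, measured in the same animals, against each other. *FABP1.2* made up 19.4 ± 3.76% of the counts of both copies in controls and 12.1 ± 4.94% in NASH (SD, n = 6 per group). Its share was lowest in NASH 11, at 4.62%, and highest among NASH animals in NASH 20, at 18.9%, which is within the control range of 14.8 to 24.2%. The shift in the balance of the copies was therefore not seen in all NASH animals.

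*FABP4*, the adipocyte and macrophage form, varied most between control animals, with a coefficient of variation of 48.2%. Controls were from 1.86 to 11.1 CPM with a median of 6.29, from counts of 26 to 217, and the lowest was control 5. NASH animals were from 15.8 to 39.1 CPM with a median of 25.3, from counts of 451 to 1253. The groups did not overlap, with the highest control at 11.1 and the lowest NASH animal at 15.8 CPM. The mean rose from 6.44 ± 3.10 to 26.0 ± 9.49 CPM (SD, n = 6 per group), or 2.0 on the log2 scale (SE 0.35, edgeR adjusted p = 0.000385). The 95% interval of the fold was 2.37 to 6.77.

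*FABP5*, the epidermal form, had the largest change among the members. Its level in controls was from 2.64 to 5.78 CPM with a median of 3.72, from counts of 37 to 126. In NASH it was from 94.4 to 165 CPM with a median of 115, from counts of 2697 to 5288. No animal lay in the gap from 5.78 to 94.4 CPM. The mean rose from 3.91 ± 1.05 to 123 ± 26.1 CPM (SD, n = 6 per group), or 4.96 on the log2 scale (SE 0.20, edgeR adjusted p = 1.17e-08). The 95% interval of the fold was 23.0 to 42.2, and 79 genes had a larger log2 fold change.

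The ratio of *FABP5* to *FABP4* counts was from 0.318 to 1.42 in controls and from 3.77 to 6.40 in NASH, with means of 0.755 ± 0.393 and 5.01 ± 1.05 (SD, n = 6 per group). Both genes rose, and the ratio of every NASH animal was above that of every control. NASH 20 had the highest level of both genes, and NASH 65 the lowest of both among NASH animals.

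**Figure D2:**
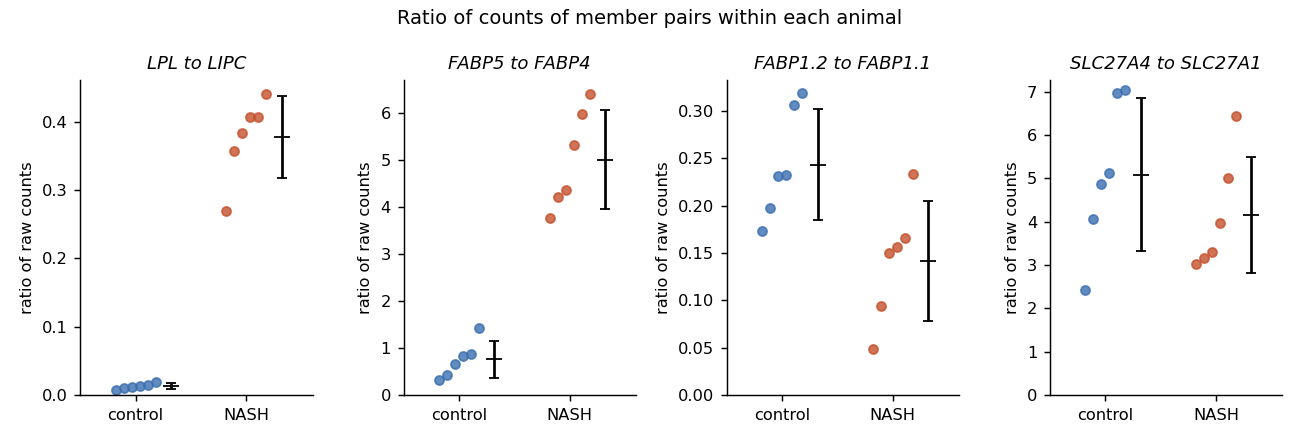
Ratio of the raw counts of member pairs (vertical axis, no unit, linear and from 0) in each of 6 control and 6 NASH animals, ordered by value within a group, with the mean and SD beside them. The groups are apart for *LPL* to *LIPC* and for *FABP5* to *FABP4*, and they overlap for the *FABP1* copies and for the SLC27 pair.

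In order of their log2 fold change the members ran from *FABP5* over *LPL*, *FABP4*, *CD36*, *SLC27A1*, *SLC27A4*, *LIPC* and *FABP1.1* to *FABP1.2*. The 95% intervals of *FABP5* (4.52 to 5.40) and *LPL* (3.97 to 4.68) overlapped. The interval of *FABP4*, 1.24 to 2.76, lay below that of *LPL* and above that of *CD36*, 0.39 to 0.78. Those of *SLC27A1*, *SLC27A4* and *LIPC* (−0.85 to −0.31) overlapped each other. The interval of *FABP1.1* lay below all of these. All members were measured in the same animals, and the differences between members were not tested.

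**Figure D3:**
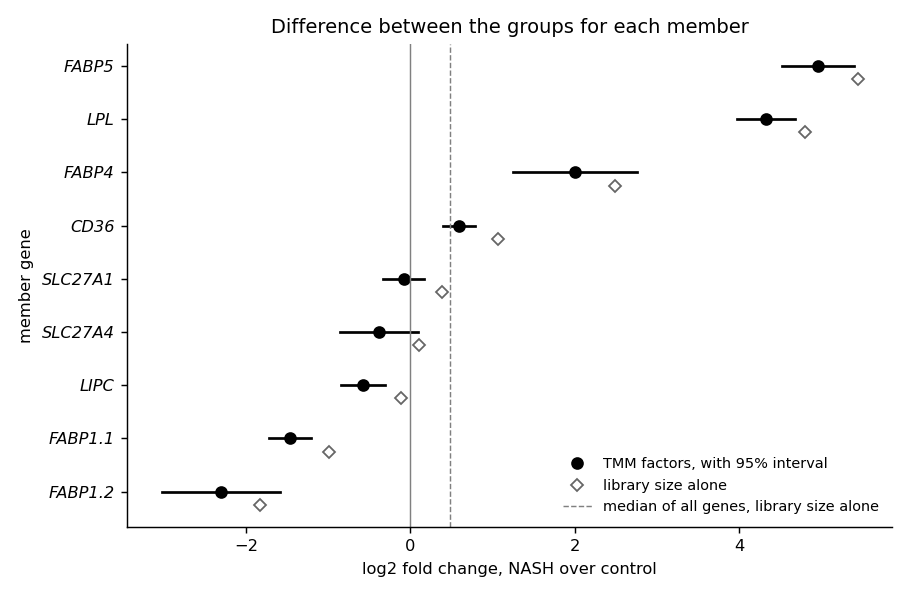
Log2 fold change of NASH over control (horizontal axis) for each of the 9 members. Filled points are the values with TMM factors and bars their 95% intervals, open diamonds are values with library size alone, and the dashed line marks the median gene with library size alone (0.48). The diamonds of *LIPC*, *SLC27A1* and *SLC27A4* lie near 0 or across it from the filled points, and the other members stay on their side.

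Other genes of fatty acid handling were taken from lists of well-known genes. The list of other transporters and acyl-CoA synthetases, which activate fatty acids, had 13 genes, and 10 were measured. By the same test 3 rose and 4 fell, and the median log2 fold change was −0.49. *SLC27A6*, the FATP6 gene known from the heart, rose from 1.80 ± 0.744 to 8.01 ± 1.53 CPM (SD, n = 6 per group), or 2.13 on the log2 scale (edgeR adjusted p = 4e-05). *ACSL4*, whose enzyme prefers arachidonic acid, and *ACSL5* rose by log2 fold changes of 0.73 and 0.42 (edgeR adjusted p = 0.00783 and 0.00229), with overlap between the groups.

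The transporters typical of hepatocytes fell. *SLC27A2*, the FATP2 gene, went from 266 ± 37.4 to 105 ± 18.2 CPM (SD, n = 6 per group), or −1.35 on the log2 scale (edgeR adjusted p = 2.43e-06). *SLC27A5*, whose product FATP5 also activates bile acids, went from 1059 ± 126 to 482 ± 92.8 CPM (SD, n = 6 per group), or −1.13 on the log2 scale (edgeR adjusted p = 1.25e-05). *ACSL3*, a synthetase of lipid droplets, fell by 1.41 on the log2 scale (edgeR adjusted p = 0.000247). The remaining gene called lower was *ACSL1*, the main liver acyl-CoA synthetase, named after its values were seen, at −1.09 (edgeR adjusted p = 2.99e-05). In all 4 genes every NASH animal was below every control. All 6 SLC27 genes were therefore measured: *SLC27A6* rose, *SLC27A2* and *SLC27A5* fell, and *SLC27A1*, *SLC27A3* (log2 fold change −0.77, edgeR adjusted p = 0.208) and *SLC27A4* did not pass the threshold.

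The list of other lipid binding proteins had 19 genes, of which 8 were measured. Of these 1 rose and 4 fell, and the median log2 fold change was −0.29. *FABP3*, the heart form, rose from 4.59 ± 0.757 to 10.5 ± 2.79 CPM (SD, n = 6 per group), or 1.18 on the log2 scale without overlap (edgeR adjusted p = 0.000128). *FABP7*, the brain form, had a log2 fold change of −0.18 (edgeR adjusted p = 0.736). *RBP5* and *CRABP1*, which bind retinoids, fell by 0.97 and 0.83 on the log2 scale (edgeR adjusted p = 6.7e-05 and 7.82e-05). *ACBD5*, a peroxisomal acyl-CoA binding protein, fell by 0.73 (edgeR adjusted p = 0.0109), but with library size alone it did not pass the threshold, at −0.25 (edgeR adjusted p = 0.262). Of the FABP family, 6 loci were thus measured, 3 of them higher (*FABP3*, *FABP4*, *FABP5*) and 2 lower (both *FABP1* copies) in NASH, and these calls kept their direction with library size alone.

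Lipoprotein lipase needs partners to fold, to be anchored and to be regulated. Of the list of lipase partners and lipoprotein receptors, 16 of 18 genes were measured. Of these 3 rose and 5 fell, and the median log2 fold change was −0.34. *GPIHBP1*, which anchors the lipase in capillaries, was not analysed here. *LMF1*, a maturation factor of the lipases named after its values were seen, fell from 12.3 ± 1.37 to 8.62 ± 0.388 CPM (SD, n = 6 per group), or −0.51 on the log2 scale (edgeR adjusted p = 0.000217), which was −0.04 with library size alone (edgeR adjusted p = 0.721).

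*APOA5*, an activator of the lipase, fell from 1096 ± 154 to 434 ± 147 CPM (SD, n = 6 per group), or −1.34 on the log2 scale (edgeR adjusted p = 0.000168). *APOC2*, its cofactor, had a log2 fold change of −0.55 and just missed the threshold (edgeR adjusted p = 0.0505). The inhibitors *ANGPTL4* and *ANGPTL8* varied widely between controls, and with log2 fold changes of −0.60 and −0.87 they did not pass (edgeR adjusted p = 0.185 and 0.138). These last 3 genes were also named after their values were seen.

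*LIPA*, the lysosomal acid lipase, rose from 104 ± 26.3 to 280 ± 39.5 CPM (SD, n = 6 per group), or 1.43 on the log2 scale (edgeR adjusted p = 2.1e-05). *HSPG2*, the basement membrane proteoglycan perlecan, rose by a log2 fold change of 1.11 (edgeR adjusted p = 1.18e-05). *SDC1*, a receptor for lipoprotein particles on hepatocytes, fell by 0.63 on the log2 scale (edgeR adjusted p = 0.000105). With library size alone it did not pass, at −0.15 (edgeR adjusted p = 0.199).

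Several members are known targets of nuclear receptors that sense fatty acids and oxysterols. Of these receptors and their partners, 11 of 13 were measured. Of these 3 rose and 4 fell, and the median log2 fold change was −0.03. *PPARG*, the receptor of adipocytes and macrophages, rose slightly, from 3.83 ± 1.01 to 5.49 ± 0.928 CPM (SD, n = 6 per group), or 0.51 on the log2 scale (edgeR adjusted p = 0.0311), with overlap between the groups. This call was lost when any 1 of 6 animals was left out (controls 5, 10 and 56 and NASH 2, 20 and 41), with adjusted p-values of edgeR up to 0.0643. *PPARD* rose by a log2 fold change of 0.58 and *NR1H2*, the gene of LXR beta, by 0.39 (edgeR adjusted p = 0.00364 and 0.00189). *NR1H3*, the gene of LXR alpha, fell from 158 ± 20.7 to 66.8 ± 11.7 CPM (SD, n = 6 per group), or −1.24 on the log2 scale (edgeR adjusted p = 3.94e-06). *RXRA* fell by 1.03 on the log2 scale (edgeR adjusted p = 0.000465). *PPARA*, the main fatty acid receptor of hepatocytes, was at 110 ± 42.4 and 124 ± 18.3 CPM (SD, n = 6 per group) and did not pass the threshold (edgeR adjusted p = 0.665).

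Over the 4 lists together, 27 of 45 genes tested (60%) passed the threshold, 10 higher and 17 lower, beside 53.9% of all genes. On library size alone 29 passed, 18 higher and 11 lower, so the balance of directions in these lists depended on the scaling.

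**Figure D4:**
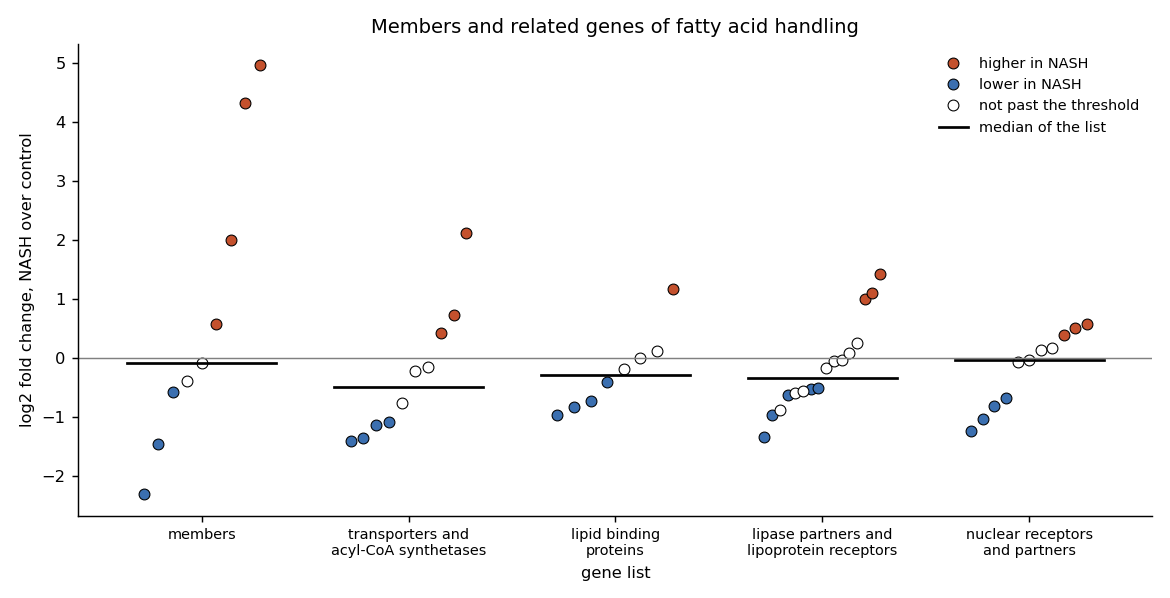
Log2 fold change of NASH over control (vertical axis) for the 9 members and the tested genes of 4 lists of related genes (horizontal axis), each point a gene and each line the median of its list. Orange points were higher, blue points lower and open points not past the threshold by edgeR's test. *FABP5* and *LPL* stand above all other genes shown, at 4.96 and 4.33.

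Several members are also expressed by cells other than hepatocytes, so the markers of these cells were measured beside them. Of 17 macrophage markers, 13 were measured, 6 of them higher and 1 lower, and their summed level was from 422 to 996 CPM in controls and from 1359 to 1860 CPM in NASH. *TREM2*, *LGALS3* and *GPNMB* had the largest log2 fold changes of the list. *TREM2*, a receptor of lipid-laden macrophages, was at most at 0.413 CPM in controls and from 9.08 to 19.3 CPM in NASH. *GPNMB* was from 14.1 to 69.8 CPM in controls and from 432 to 579 CPM in NASH. *LGALS3*, which epithelial cells express as well, was from 4.29 to 7.78 CPM and from 142 to 216 CPM. *MARCO*, a marker of resident Kupffer cells, fell by 1.27 on the log2 scale (edgeR adjusted p = 0.00364). The other markers were named after their values were seen. *TYROBP*, *MSR1* and *CD68* rose by log2 fold changes of 2.04, 1.15 and 0.69 (edgeR adjusted p = 1.68e-06, 0.0103 and 9.33e-06). *CSF1R*, *C1QA*, *C1QB*, *C1QC*, *CLEC4F* and *CD5L* did not pass the threshold, at log2 fold changes from −0.82 to 0.41 (edgeR adjusted p from 0.0879 to 0.703). With library size alone *CSF1R*, *C1QB* and *C1QC* were called higher (edgeR adjusted p = 0.0154, 0.0121 and 0.0224). The groups did not overlap in the sum of all 13 markers. Without *GPNMB* and *LGALS3*, a choice made after seeing the data, the sum of the other 11 was from 404 to 920 CPM in controls and from 745 to 1107 CPM in NASH, and the groups overlapped. The means of this sum were 710 ± 183 CPM in controls and 859 ± 131 CPM in NASH (SD, n = 6 per group).

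The adipocyte markers gave another picture. Of 11 listed, 4 were measured, and their summed level was from 16.0 to 30.0 CPM in controls and from 11.4 to 16.1 CPM in NASH. *LGALS12*, *LIPE* and *CIDEC* were lower, at log2 fold changes of −1.34, −1.01 and −0.44 (edgeR adjusted p = 0.00104, 0.000448 and 0.0327), and *CFD* was higher, at 1.11 (edgeR adjusted p = 0.00493). *CIDEC* was at 0.03 with library size alone (edgeR adjusted p = 0.879), and its call was also lost when any 1 of 6 animals was left out (controls 31 and 45 and NASH 9, 11, 41 and 65). The defining adipocyte genes *ADIPOQ*, *LEP* and *PLIN1* were not among the genes tested.

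The summed level of the 12 endothelial markers tested of 14 listed was from 684 to 994 CPM in controls and from 775 to 1070 CPM in NASH, with wide overlap. Of these, 4 were higher and 2 lower. *VWF* and *CD34* rose by log2 fold changes of 1.46 and 1.3 (edgeR adjusted p = 7.85e-06 and 0.000144), and *LYVE1* of the sinusoidal endothelium fell by 0.81 (edgeR adjusted p = 0.000314). Of the other sinusoidal markers, named after their values were seen, *STAB2* rose by a log2 fold change of 0.45 (edgeR adjusted p = 0.00554), and *STAB1* and *CLEC4G* did not pass the threshold. All 10 stellate cell and myofibroblast markers were tested, 7 of them higher and 1 lower, and their sum was from 721 to 864 CPM in controls and from 1501 to 2961 CPM in NASH.

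The cholangiocyte markers, 6 of 7 tested with 5 higher and none lower, had sums from 162 to 325 CPM in controls and from 424 to 803 CPM in NASH. The red cell markers, 3 of 6 tested and all 3 higher, had sums from 57.0 to 171 CPM in controls and from 426 to 4524 CPM in NASH. NASH 41 (4524 CPM) and NASH 65 (3275 CPM) stood apart, and the other 4 NASH animals had red cell sums from 426 to 725 CPM, still above all controls. Among the 6 NASH animals, the order by the stellate cell sum was the same as that by *FABP4*, and the order by the cholangiocyte sum was the same as that by *FABP5*. The order by the hepatocyte sum was the exact reverse of that by *FABP5*. The sums of the remaining cell types gave neither the order of *FABP4*, *FABP5* or *LPL* nor its reverse. Among the controls neither the matches nor the reversal was seen. In NASH the orders by *FABP4* and by *FABP5* differed only in the places of NASH 9 and NASH 41. These orders were compared after the values were seen and carry no test. Of the 9 hepatocyte markers tested, 8 fell and none rose, and their log2 fold changes ran from −2.20 (*TTR*) to −0.18 (*ASGR1*) with a median of −0.91. The value of *FABP1.1*, −1.46, lay within this range and that of *FABP1.2*, −2.31, just below it. The call of *ASGR1* was lost when any 1 of 8 animals was left out (controls 10, 31, 32 and 45 and NASH 2, 9, 20 and 41). On library size alone, 5 hepatocyte markers were lower and 1 higher. The part of each cell type in the levels of the members was not tested.

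**Figure D5:**
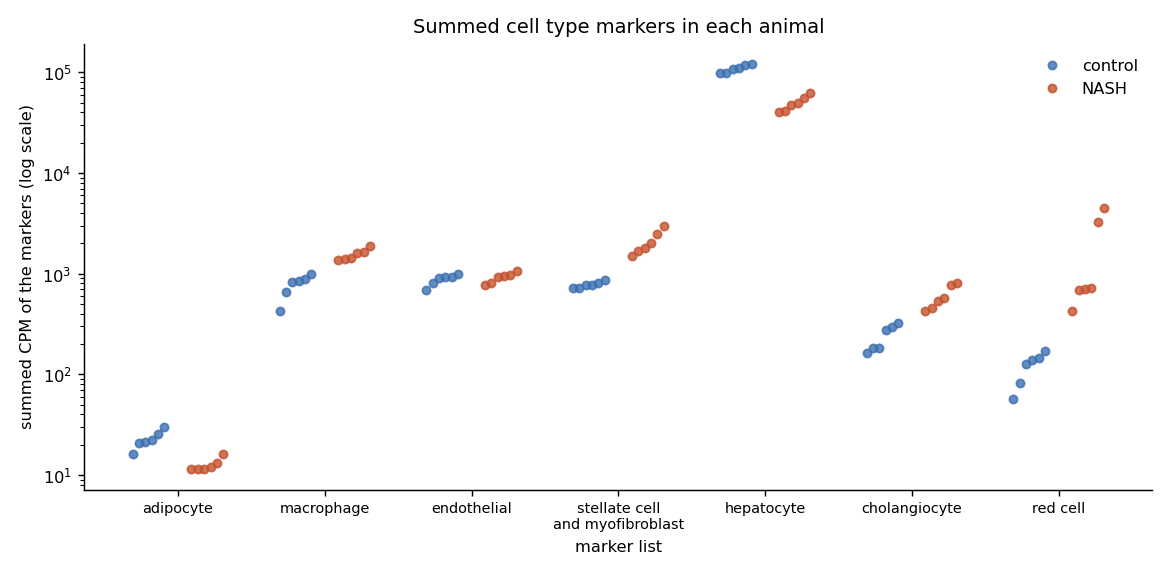
Summed CPM of the tested markers of each cell type (vertical axis, log scale) in each of 6 control and 6 NASH animals, ordered by value within a group. The macrophage, stellate cell, cholangiocyte and red cell sums lie higher in every NASH animal than in any control, the hepatocyte sum lies lower, and the endothelial and adipocyte sums overlap.

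The genes whose deposited log2 values followed a member most closely from animal to animal were found after each group's mean had been subtracted, so that the difference between the groups did not enter. Pearson's r over the 12 animals is given as a description. Each gene was picked from the 11896 genes, and how high r would reach among as many unrelated genes was not tested. For *LPL* these were *EEPD1* (r = 0.90), *PTPN9* (0.89) and *TTC27* (0.89), and of them *EEPD1* rose in NASH, by a log2 fold change of 1.47 (edgeR adjusted p = 0.000139). For *CD36* they were *NEDD4L* (r = 0.94), *HECA* (0.89) and *MACO1* (0.88). For *FABP4* they were *EFCAB11* (r = 0.90) and *CCL15* (0.89), whose count row carries further chemokine symbols that count as the same pattern. For *FABP1.1* they were *AKR1A1* (r = 0.98), *SUPT5H* (0.96) and *DIS3L* (0.95), and for *LIPC* they were *AMIGO1* (r = 0.87), *CHRD* (0.86) and *SLC5A2* (0.85). No member was among the 3 genes most like any of these 5.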

How the data were processed

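The members and gene lists were chosen with earlier results of these data known. The count table that the authors deposited is unnormalised, with loci named by StringTie or Ensembl, and followed Trimmomatic 0.38.0, HISAT2 2.1.0 on Cavpor3.0 without multimapped reads, and StringTie 1.3.6. The authors also deposited log2 values (rlog of DESeq2) for genes with a human symbol and at least 200 counts. The count row of each symbol was found by repeating that transformation, with values within 8.4e-07 for all 11896 symbols, which came from 11031 of 39061 count rows. Each member stood alone on its row. Counts were tested in R 4.3.3 with edgeR 4.0.16 (TMM, total counts as library size, robust glmQLFit, glmQLFTest, Benjamini-Hochberg over all symbols, threshold 0.05), which was checked on simulated data. SE is the absolute log2 fold change over the square root of F, and 95% intervals use the t distribution of the fit. Rank positions and ratios carry no test. Alternatives were RLE and upper-quartile factors, library size alone, DESeq2 1.42.0, limma 3.58.1 (voom, and on rlog values), other row filters, a threshold of 0.01, glmTreat at a log2 fold change of 1, and leaving out each animal. Named were all members, the 3 highest and 3 lowest called genes of each list, and every gene of lists with 5 or fewer tested. Some genes that this rule names are not reported here. For *LPL*, *CD36*, *FABP4*, *FABP1.1* and *LIPC* the 3 most similar genes were named as well. Counts of animals within a group differed by a chi-square of at least 41.9 per degree of freedom, far beyond counting error. The labels name each animal as a separate sample. No sequence or coordinate is given, because no genome of the authors' build was used here.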

Additional observations from a re-analysis of the deposited data

How the results depend on the processing

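The number of members past the threshold was 7 in the main analysis and stayed at 7 with RLE and upper-quartile factors, library size alone, DESeq2, limma-voom, limma on the deposited log2 values, other row filters and a threshold of 0.01. Tested by glmTreat for changes beyond a log2 fold change of 1 it was 5, since *CD36* and *LIPC* (both edgeR adjusted p = 1) no longer passed. With each animal left out in turn it was 7 or 8, the 8 without control 56, when *SLC27A4* passed at −0.53. With library size alone 5 members were higher and 2 lower, and over all genes 7603 were higher and 911 lower. Under that scaling *SLC27A1* turned from −0.08 to 0.39 and *SLC27A4* from −0.38 to 0.10, and *LIPC* lost its call at −0.11. *SLC27A1* was also at 0.00 (0.00233) when every count row with at least 1 count was tested. Of the 45 genes in the 4 lists of related genes, 27 passed, between 26 and 28 with an animal left out, and 3 by glmTreat. *LPL*, *FABP1.1*, *FABP1.2*, *FABP4* and *FABP5* kept their direction and passed in all 23 alternatives. Their log2 fold changes were closest to 0 on the shrunken rlog scale, at 2.37 for *LPL* and 2.89 for *FABP5*. Depth limited *LPL*, *FABP4* and *FABP5* in controls most, where 26 to 217 counts stood behind a value. No paired analysis was made, because neither the labels nor the authors' methods name pairs of control and NASH animals.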
